A study of Mus musculus with 3 samples.

Results

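The segmentation clock and the presomitic mesoderm were followed through 10 genes: Hes7, Lfng, Dll1, Dll3, Mesp1, Mesp2, Ripply1, Ripply2, Tbx6 and Msgn1. They were found on the arrays by gene symbol or RefSeq accession, which gave 12 probes of 55681 non-control probes. All 10 genes are among the 23555 genes tested. RNA of E8.75 mouse embryos was hybridised to 3 arrays with 2 colours each. On every array the Cy3 channel held RNA labelled wild-type and the Cy5 channel RNA labelled Brpf1-deficient, and the embryos had received no treatment. The labels number the arrays as embryo 1 to 3, and the 2 RNAs of an array are called a pair here. Brpf1 encodes a scaffold of histone acetyltransferase complexes. The sources used here do not give the strain, the allele, the sex or the number of embryos behind each RNA. A p-value here measures only how far the 3 pairs differ, which may be technical.

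The presomitic mesoderm is the unsegmented tissue at the tail end of the embryo from which somites, the blocks that later form vertebrae and body wall muscle, are cut at regular intervals. Timing comes from a clock in which Notch signalling and its repressor Hes7 rise and fall in each cell, and position comes from FGF and Wnt signals that are strongest in the tail bud. Where the clock meets the front of that gradient, Tbx6 and Notch switch on Mesp2, which sets the next border, and the Ripply proteins then end the activity of Tbx6 and Mesp2.

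Each ratio is Cy5 over Cy3 on the log2 scale, and a negative one stands for less signal in the channel labelled Brpf1-deficient. The authors' deposited table runs the other way: its ratio correlated at -0.802 with the ratio used here over 39915 shared probes, and its signs are opposite to those below. Brpf1 itself had log2 ratios of 2.01, 1.43 and 1.06 in pairs 1, 2 and 3. It was thus brighter in the channel labelled deficient, which goes against a plain reading of that label. The reason was not tested, and where the probe lies relative to the disrupted part was not analysed here. Directions are therefore given for the channels as labelled. All arrays have the same dye orientation, 1 slide and 1 scan time, so dye and genotype cannot be told apart. Between 49.4% and 59.8% of probes were well above background in a channel. All 12 probes of the 10 genes were well above background in both channels on all 3 arrays, and none had a saturated or outlying spot. All 5 markers of presomitic and somite tissue and all 8 of other embryo tissues were above background in both channels of all arrays. So were all 7 markers of visceral endoderm and yolk sac and 4 of 5 markers of decidua and uterus. Of 5 trophoblast markers on the array, Tpbpa and Psg17 were not above background in any channel.

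None of the 10 genes passed the threshold of 0.05 for the adjusted p (limma, Benjamini-Hochberg over all genes), while 1.38% of all genes did, 0.0934% lower and 1.29% higher in Cy5. The ratios of 6 genes, Hes7, Dll1, Dll3, Mesp1, Mesp2 and Tbx6, lay below 0 in all 3 pairs, as did those of 23.8% of all genes. Those of Ripply1 and Ripply2 lay above 0 in all 3 pairs, as did 19.7% of all genes. Lfng and Msgn1 had ratios on both sides of 0. The smallest adjusted p belonged to Mesp2, with a mean log2 ratio of -0.50 ± 0.08 (SE, n = 3 pairs, limma adjusted p = 0.0893). At an unadjusted p below 0.05 there were 7 members, against 17.3% of all genes. Of these, 5 lay below 0, against 9.12% of all genes, and 2 above, against 8.23%. The median over the 10 genes was -0.39, and over all genes tested it was -0.02. Without pair 3 the median of the 10 genes was -0.13. In RNA from embryos, fewer presomitic cells and less RNA per cell cannot be told apart.

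**Figure D1:**
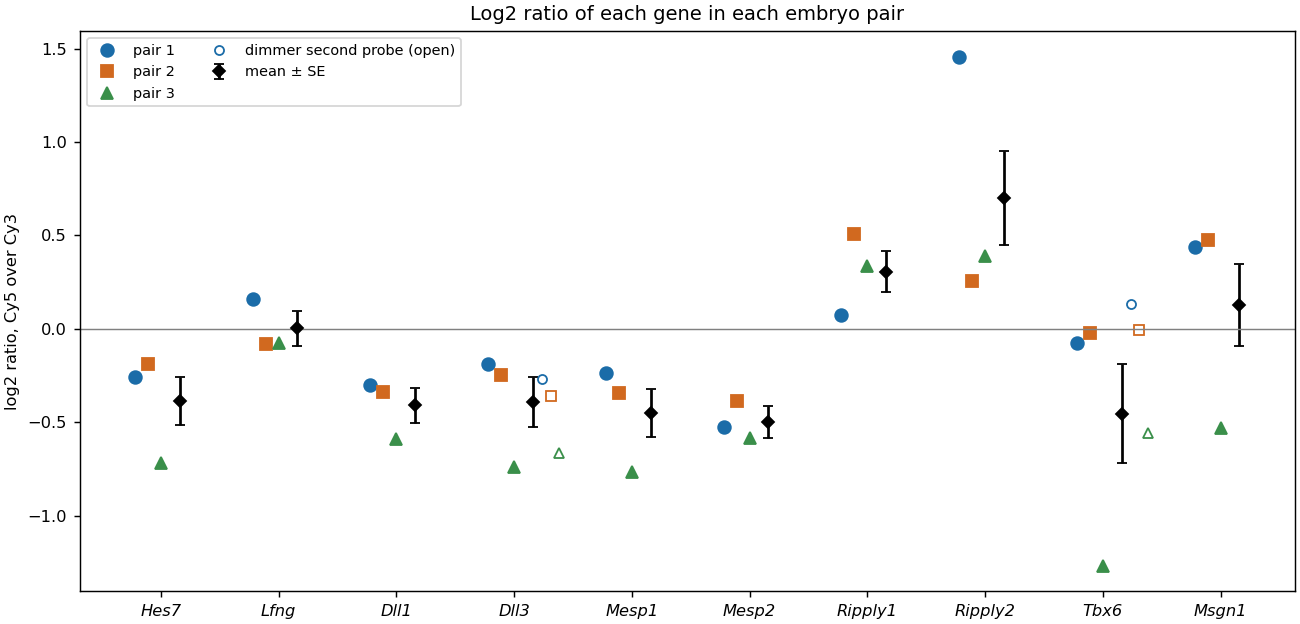
Log2 ratio of Cy5 (labelled Brpf1-deficient) over Cy3 (labelled wild-type) for each of the 10 genes, with 1 filled symbol per embryo pair, the mean with its moderated SE as a black diamond, and open symbols for the dimmer second probes of Dll3 and Tbx6. The green triangles of pair 3 lie lowest for 7 genes, and both Ripply genes lie above 0 in every pair.

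Dll1 is the main Notch ligand of the presomitic mesoderm. Its normalized log2 intensity was 12.82, 12.97 and 12.73 in the Cy3 channel of pairs 1, 2 and 3, and 12.52, 12.64 and 12.14 in the Cy5 channel. Every Cy5 value lay below every Cy3 value. How many of all genes have such separate channels was not counted, for Dll1 or for the genes below. The log2 ratios were -0.30, -0.34 and -0.59, with a mean of -0.41 ± 0.10 (SE, n = 3, limma adjusted p = 0.166), which is 1.33-fold more signal in Cy3. The 95% interval of the mean ran from -0.65 to -0.16. Dll1 was the only member printed in several spots, 10 on each array, so its ratio could also be read within an array. The 10 spots had a mean of -0.30 ± 0.03 (SD over spots) in pair 1, -0.34 ± 0.03 in pair 2 and -0.59 ± 0.05 in pair 3. All 10 spots lay below 0 on each array, and the spots of pair 3, from -0.65 to -0.51, did not overlap those of the other pairs. Spots of 1 array share their RNA and are not replicates of a genotype.

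**Figure D2:**
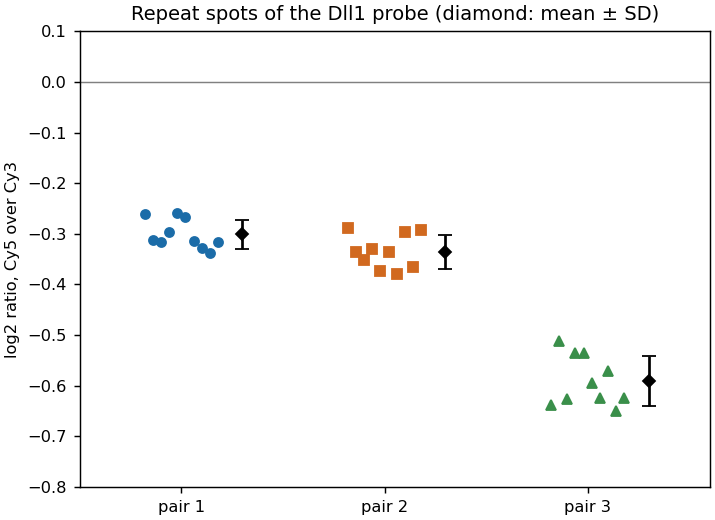
Log2 ratio of Cy5 over Cy3 of the 10 spots that carry the Dll1 probe on each array, with the mean and the SD over spots as a diamond. The SD over the spots of an array is at most 0.05, and the spots of pair 3 lie apart from those of pairs 1 and 2.

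Dll3 is a divergent Delta protein that acts within the cell and holds Notch signalling back. The brighter of its 2 probes had log2 intensities of 12.28, 12.43 and 12.25 in Cy3 and 12.09, 12.18 and 11.51 in Cy5. As for Dll1, every Cy5 value was under every Cy3 value. The ratios were -0.19, -0.25 and -0.74, with a mean of -0.39 ± 0.13 (SE, n = 3, limma adjusted p = 0.252), and -0.22 without pair 3. The second Dll3 probe gave -0.27, -0.36 and -0.67, so both probes had the same sign in each pair and their lowest value in pair 3. The difference Dll3 minus Dll1 was 0.11, 0.09 and -0.15 in pairs 1, 2 and 3, a mean of 0.02 ± 0.14 (SD, n = 3). An exact sign permutation test over the pairs gave p = 1 (two-sided, where 0.25 is the smallest p that 3 pairs allow). At 3 pairs the ratios of the 2 ligands were not told apart.

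Hes7 and Lfng are 2 cyclic genes of the group. Hes7 is a repressor that switches off its own promoter, and Lfng is a glycosyltransferase that modifies the Notch receptor. Both are known to be driven by Notch through its DNA-binding partner RBPJ. Their promoters are shown because both hold the RBPJ core TGGGAA. The 250 bases before the annotated start are given 5′ to 3′ from the RefSeq promoter table (GRCm38.p6), with TGGGAA on either strand in capitals.
Hes7, chr11:69120203-69120452, plus strand: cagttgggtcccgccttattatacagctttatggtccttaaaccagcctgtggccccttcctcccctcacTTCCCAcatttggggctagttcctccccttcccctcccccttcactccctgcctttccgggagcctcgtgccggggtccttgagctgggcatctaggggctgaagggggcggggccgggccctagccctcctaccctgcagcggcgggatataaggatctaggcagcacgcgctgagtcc
Lfng, chr5:140607091-140607340, plus strand: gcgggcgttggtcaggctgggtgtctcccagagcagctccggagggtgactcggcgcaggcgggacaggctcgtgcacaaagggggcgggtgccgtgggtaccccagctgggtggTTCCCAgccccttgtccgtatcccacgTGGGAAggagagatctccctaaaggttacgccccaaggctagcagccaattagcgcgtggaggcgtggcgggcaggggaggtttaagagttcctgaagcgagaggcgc
Hes7 holds 1 match, on the minus strand, whose nearest base is 175 bases before the start. Lfng holds 2, at 130 bases on the minus strand and at 103 bases on the plus strand. The core was found in 21.6% of 32841 promoters of the same length and in 3 of the 11 promoters listed for the 10 genes, the other being that of Msgn1. A match is a description of the letters and not a bound site.

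Hes7 had log2 intensities of 11.66, 11.39 and 11.66 in Cy3 and 11.40, 11.20 and 10.95 in Cy5. Both channels overlapped between pairs, since Cy5 of pair 1 was above Cy3 of pair 2. The Hes7 ratios were -0.26, -0.19 and -0.71, with a mean of -0.39 ± 0.13 (SE, n = 3, limma adjusted p = 0.248), and -0.22 without pair 3. Lfng had 8.33, 8.47 and 8.37 in Cy3 and 8.49, 8.39 and 8.29 in Cy5. Channels of Lfng overlapped, and its ratios were 0.16, -0.08 and -0.07. The mean for Lfng was 0.00 ± 0.09 (SE), with a 95% interval from -0.23 to 0.24. The median signals of its probe were 252, 303.5 and 254 in Cy3 over a local background of 55 to 74. The sign of the Lfng mean turned negative with a loess span of 0.02, median centring, processed signals, no background correction, an offset of 0 or without pair 1.

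Tbx6 and Msgn1 are transcription factors that define the presomitic mesoderm. Tbx6, a T-box protein needed for paraxial instead of neural fate, had log2 intensities of 11.53, 11.66 and 11.94 in Cy3 and 11.46, 11.63 and 10.68 in Cy5. Its ratios were -0.07, -0.02 and -1.27. In pair 3 the Cy5 value stood apart, and only 0.0764% of all genes had a lower ratio in that pair. The mean was -0.45 ± 0.27 (SE, n = 3, limma adjusted p = 0.425), and it was -0.05 without pair 3. A second, dimmer Tbx6 probe gave 0.13, -0.01 and -0.56, which keeps pair 3 lowest but is smaller and turns the sign in pair 1. Msgn1, a bHLH factor of the posterior presomitic mesoderm, had 9.59, 9.51 and 9.86 in Cy3 and 10.02, 9.98 and 9.33 in Cy5. Cy5 was thus the brighter channel in pairs 1 and 2 and the dimmer one in pair 3. The Msgn1 ratios were 0.44, 0.48 and -0.53, with a mean of 0.13 ± 0.22 (SE, limma adjusted p = 0.785). The Msgn1 mean was 0.46 without pair 3 and below 0 without pair 1 (-0.03) or pair 2 (-0.05).

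**Figure D3:**
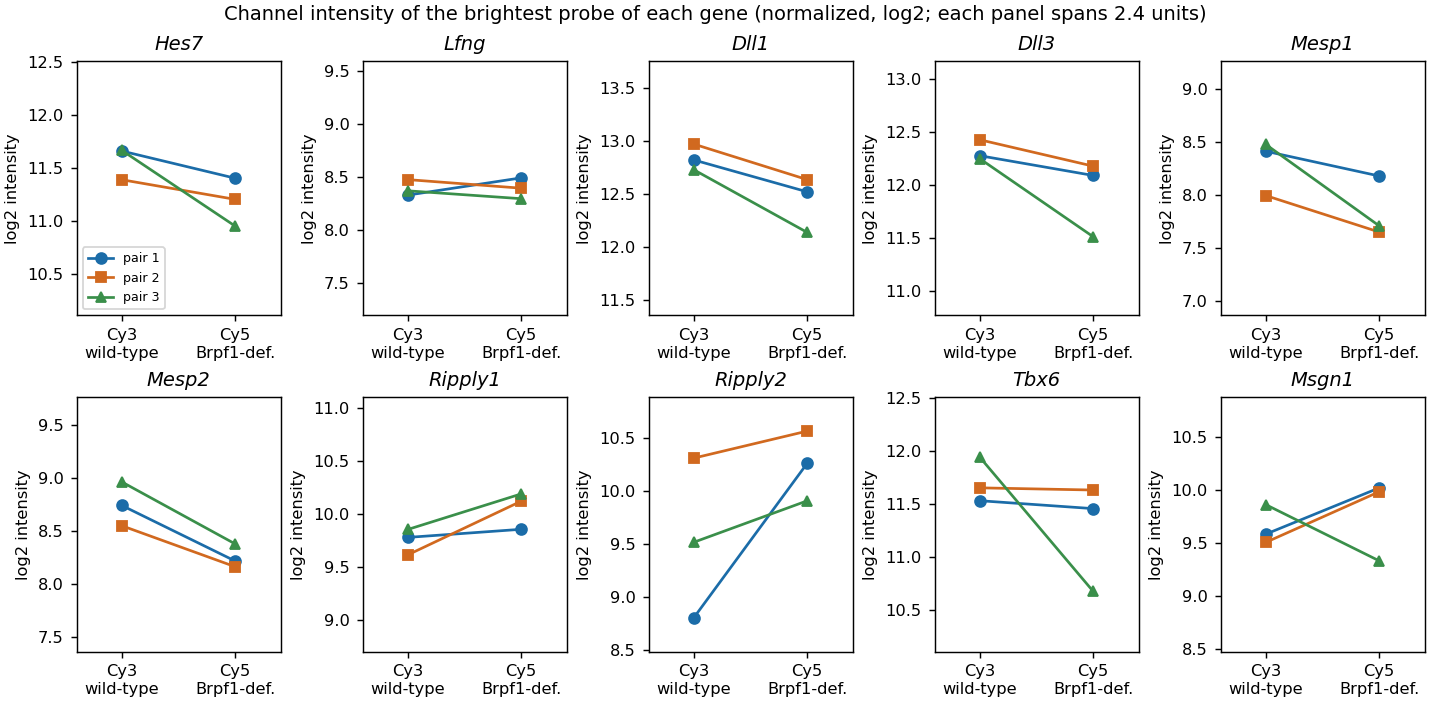
Normalized log2 intensity of the brightest probe of each gene in the Cy3 channel (labelled wild-type) and the Cy5 channel (labelled Brpf1-deficient), with 1 line per embryo pair. Each panel has its own axis of the same length, and levels of different genes are not comparable. The Mesp2 lines slope down alike, while the Tbx6 and Msgn1 lines of pair 3 run apart from the other 2.

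Mesp1 and Mesp2 are bHLH paralogues that lie next to each other on chromosome 7. Mesp1 marks the earliest mesoderm and the heart precursors, and Mesp2 sets the segment border and the front and back of each somite. Their promoters are shown as those of the neighbouring pair with the lowest ratios apart from Tbx6. Capitals mark the T-box element AGGTGT on either strand, which 11.8% of all promoters hold.
Mesp1, chr7:79793591-79793840, minus strand: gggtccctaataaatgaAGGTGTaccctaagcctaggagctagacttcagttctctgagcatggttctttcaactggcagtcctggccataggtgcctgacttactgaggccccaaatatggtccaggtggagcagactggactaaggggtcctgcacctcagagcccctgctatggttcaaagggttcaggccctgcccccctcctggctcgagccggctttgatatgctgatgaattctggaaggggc
Mesp2, chr7:79810477-79810726, plus strand: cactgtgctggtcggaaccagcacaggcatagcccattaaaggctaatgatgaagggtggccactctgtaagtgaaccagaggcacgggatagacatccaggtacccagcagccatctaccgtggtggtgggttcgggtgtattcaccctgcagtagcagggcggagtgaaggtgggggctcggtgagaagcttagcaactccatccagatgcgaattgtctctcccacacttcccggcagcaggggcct
Mesp1 holds 1 match, 228 bases before the start, and none of the other members' promoters holds one. No match in this window says only that these letters are not there.

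Mesp2 was the member with the steadiest ratios. Its median signal before correction in pairs 1, 2 and 3 was 332, 312 and 372 for Cy3, and 384, 352 and 381 for Cy5. Its local background was 50, 48 and 62.5 for Cy3, and 130, 163 and 135.5 for Cy5. The background was higher in Cy5 on every array. After correction the Mesp2 log2 intensities were 8.74, 8.55 and 8.96 in Cy3 and 8.22, 8.16 and 8.38 in Cy5, with no overlap between channels. The ratios were -0.52, -0.39 and -0.58, which is 1.41-fold more signal in Cy3 in the mean, and the 95% interval of the mean ran from -0.72 to -0.28. The ratio was lower than that of Mesp2 in 1.18% of all genes. Mesp1 had 8.42, 7.998 and 8.48 in Cy3 and 8.18, 7.65 and 7.71 in Cy5. Its channels overlapped, because Cy5 of pair 1 was above Cy3 of pair 2. Its ratios were -0.23, -0.34 and -0.77, with a mean of -0.45 ± 0.13 (SE, n = 3, limma adjusted p = 0.208), and -0.29 without pair 3. The Mesp1 mean was -0.73 ± 0.27 when the processed signals of the scanner files were used instead. The difference Mesp2 minus Mesp1 was -0.29, -0.04 and 0.18, a mean of -0.05 ± 0.24 (SD, n = 3, exact sign permutation test, two-sided p = 0.75). It was 0.07 with processed signals and without pair 1.

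Ripply1 and Ripply2 recruit a corepressor to T-box proteins and bring the activity of Tbx6 and Mesp2 to an end at the new border. Both lay on the other side of 0 from Mesp2. Ripply1 had log2 intensities of 9.78, 9.61 and 9.85 in Cy3 and 9.85, 10.12 and 10.19 in Cy5. No Cy5 value was below a Cy3 value. The Ripply1 ratios were 0.08, 0.51 and 0.34, with a mean of 0.31 ± 0.11 (SE, n = 3, limma adjusted p = 0.265). Ripply2 varied most of the 10 genes in the Cy3 channel, with 8.80, 10.31 and 9.52, against 10.26, 10.57 and 9.91 in Cy5. Both channels overlapped, since Cy3 of pair 2 was above Cy5 of pair 1. The low Cy3 value of pair 1, a median signal of 354 against 1197 in pair 2 and 538 in pair 3, gave the largest ratio. The Ripply2 ratios were 1.46, 0.25 and 0.39, with a mean of 0.70 ± 0.25 (SE, n = 3, limma adjusted p = 0.264). Without pair 1 the Ripply2 mean was 0.32. The difference Ripply2 minus Ripply1 was 1.38, -0.25 and 0.06 (mean 0.39 ± 0.87 SD, exact sign permutation test, two-sided p = 0.75) and went to -0.10 without pair 1. All 3 differences between paralogues had a Benjamini-Hochberg adjusted p of 1 from this exact test.

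Ripply ratios were then set against those of the genes they act on, a comparison chosen after the values were seen. Ripply1 minus Mesp2 was 0.60, 0.89 and 0.92 in pairs 1, 2 and 3. Ripply2 minus Mesp2 was 1.98, 0.64 and 0.98, and the differences from Tbx6 were also above 0 in every pair for both genes, from 0.15 to 1.66. The sign of these differences was fixed beforehand, since both Ripply genes lay above 0 and Mesp2 and Tbx6 below 0 in all 3 pairs. It therefore adds nothing to the ratios above. These are values of the same 3 arrays and carry no test, since 3 pairs allow no exact p under 0.25.

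Pair 3 gave the lowest ratios. In it 7 of the 10 genes, Hes7, Dll1, Dll3, Mesp1, Mesp2, Tbx6 and Msgn1, had a ratio below -0.5, a limit set after the values were seen, as did 2.99% of all genes. In pair 1 only Mesp2 was below that limit (3.66% of all genes) and in pair 2 none was (7.59%). The member medians were -0.13, -0.13 and -0.59 in pairs 1, 2 and 3, beside -0.02, -0.04 and -0.01 over all genes. Marker lists of the embryo and of other tissue were read by pair as well. The 5 markers of presomitic and somite tissue, which include Tbx6, had medians of 0.18, -0.02 and 0.08, and the 8 markers of other embryo tissues 0.09, -0.15 and -0.37. The median of the latter was thus also lowest in pair 3, and that of the former was not. Single genes of the former differed. T (-0.13, -0.46 and -1.10), Tcf15 (0.58, 0.75 and 0.10) and Tbx6 had their lowest ratio in pair 3. Meox1 (0.18, -0.02 and 0.08) and Uncx (0.62, 0.74 and 0.90) did not. The summed normalized intensity of these 5 was 23428, 27912 and 27400.5 in Cy3 of pairs 1, 2 and 3. In Cy5 it was 26534, 29773 and 22847. The 5 markers of decidua and uterus had medians of -0.74, -0.63 and 0.43, and the 3 trophoblast markers tested -0.29, -0.73 and 0.51. The summed normalized intensity of the decidua list ranged from 47343 to 69692 in Cy3 and from 35823 to 75137 in Cy5. That of the trophoblast list ranged from 6092 to 13162 in Cy3 and from 6848 to 11615 in Cy5, with Tpbpa and Psg17 not above background. The visceral endoderm and yolk sac list had medians of 0.16, 0.59 and 0.54, and its sum ranged from 345722 to 596634 in Cy3 and from 569318 to 790347 in Cy5. The 5 markers of primitive erythroid cells had medians of -0.15, 0.77 and 0.91, and sums from 237872 to 871140 in Cy3 and from 539517 to 903525 in Cy5. Of these, Hbb-bh1, an embryonic globin, was higher in Cy5, with ratios of 0.83, 1.58 and 1.42 (mean 1.28 ± 0.16 SE, limma adjusted p = 0.0418). Its probe was very bright, with a mean log2 intensity of 17.6. The other 4 erythroid markers did not pass. Among them Hbb-y had -1.62, 1.08 and 1.83, and the means of Hba-x, Gata1 and Klf1 were 0.55, 0.03 and -0.09. The part of these marker lists in the ratios of the segmentation genes was not tested.

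Around the clock, lists of other genes of the same pathways were read in the same fit. None of 20 Notch pathway genes passed, and 15 of them lay below 0, as did 54.4% of all genes (median -0.11). Dll4, a Notch ligand of vessels, had 0.32 ± 0.08 (SE, limma adjusted p = 0.18), the receptor Notch3 -0.42 ± 0.12 (adjusted p = 0.21) and the ligand Jag1 -0.39 ± 0.12 (adjusted p = 0.224). None of 15 genes of the FGF gradient passed (median -0.08). Dusp4, a MAP kinase phosphatase induced by FGF, had 0.31 ± 0.11 and the tail bud ligands Fgf4 and Fgf8 -0.56 ± 0.27 and -0.19 ± 0.10. Of 15 Wnt genes 14 were tested and none passed, while 12 lay below 0, against 54.4% of all genes (median -0.22). Rspo3, a secreted enhancer of Wnt signalling, had -0.37 ± 0.10 (adjusted p = 0.186), the feedback inhibitor Axin2, which cycles with the clock, -0.27 ± 0.10 and Myc -0.28 ± 0.11. Wnt3a was on the array but dropped by the filter.

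Genes next to the presomitic mesoderm in space lay on both sides of 0. None of 14 genes of the tail bud and paraxial mesoderm list passed (median 0.04). T, which encodes the mesoderm factor Brachyury, had ratios of -0.13, -0.46 and -1.10, with a mean of -0.56 ± 0.19 (SE, limma adjusted p = 0.255). As in Tbx6, pair 3 was lowest. Hoxb1 had 0.71, 0.66 and -0.04 (mean 0.45 ± 0.17 SE, limma adjusted p = 0.284). Nkx1-2, a marker of progenitors beside the node, had 0.77, 0.73 and -0.16 (mean 0.45 ± 0.21 SE, limma adjusted p = 0.34). Both were thus below 0 in pair 3. In the somite list 2 of 13 genes passed the threshold as higher in Cy5, as did 1.29% of all genes, and 11 did not pass. Uncx, a homeobox gene of the back part of each somite, had 0.62, 0.74 and 0.90, and Cer1, a secreted antagonist found at the front of the presomitic mesoderm, 0.82, 0.82 and 0.60. Their adjusted p-values were 0.0376 and 0.0356 (limma). The Uncx probe was dim, with a mean log2 intensity of 7.89 against 8.08 for Mesp1, the dimmest of the members. Neither the Uncx nor the Cer1 call, nor that of Hbb-bh1, remained when any 1 pair was left out, because no gene passed there. The same held with a loess span of 0.02, processed signals or an offset of 0. Without genes of a mean log2 intensity above 16 no gene passed either, but Hbb-bh1 was itself left out there and so not tested. Meox2, a somite homeobox gene, had 0.69 ± 0.20 (adjusted p = 0.208).

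**Figure D4:**
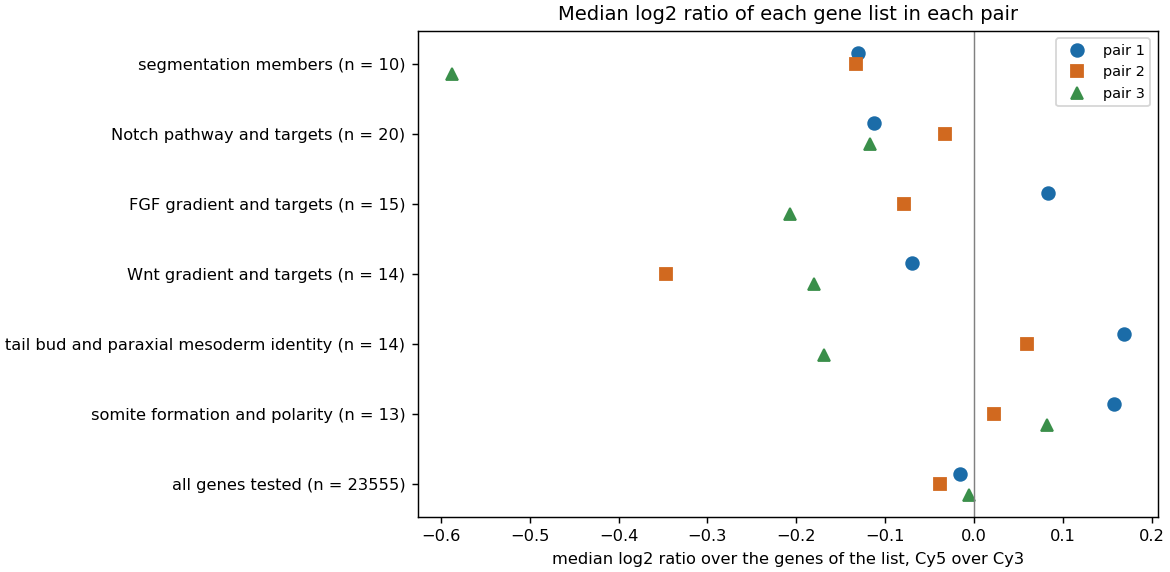
Median log2 ratio of Cy5 over Cy3 over the genes of each list in each embryo pair, with the number of genes tested and, in the lowest line, all genes. The 10 segmentation genes have medians of -0.13, -0.13 and -0.59, and the somite list lies above 0 in all 3 pairs.

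Under 9 other processing choices and 3 omissions of a pair, no member passed the threshold in any setting. The 6 genes with ratios below 0 and both Ripply genes kept the sign of their mean in all 12 settings. In the 3 omissions this had to hold, since their ratios had 1 sign in every pair. The 2 other filters and the omission of bright genes could not change these ratios. The mean over probes changed only those of Dll3 and Tbx6. Only the remaining processing choices could have turned a sign of the other genes. The Mesp2 mean stayed between -0.66 and -0.45 and that of Dll1 between -0.50 and -0.32. That of Tbx6 ran from -0.67 to -0.05. The authors' deposited table lists 10 of the 12 probes, each with the sign opposite to the ratio given here. Turned to Cy5 over Cy3, the authors' deposited table has -0.61 for Mesp2 (adjusted p = 0.339), -0.41 for Dll1 (adjusted p = 0.435), -0.65 for Mesp1 and 0.83 for Ripply2.

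**Figure D5:**
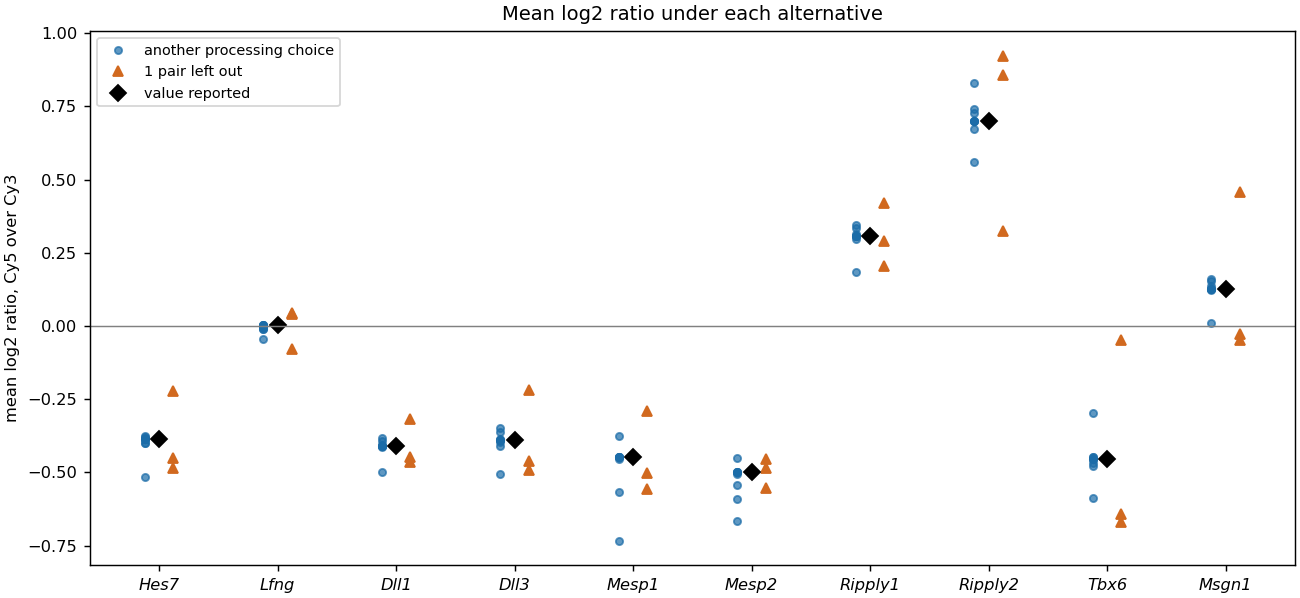
Mean log2 ratio of Cy5 over Cy3 of each gene as reported (black diamond), under 9 other processing choices (blue circles) and with 1 pair left out (orange triangles). The Mesp2 values lie between -0.66 and -0.45, whereas the Tbx6 values with a pair left out lie between -0.67 and -0.05.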

How the data were processed

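Gene expression was measured in 3 pairs of embryo RNA on 2-colour Agilent arrays. Total RNA (350 ng, per the labels' protocols) was amplified in 1 round before dye coupling. Feature Extraction 10.7.3.1 read the scans, and the intensity values are, per the file headers, median brightness of spot and local background on a linear scale, and the 0 or 1 flags per spot are the scanner software's. Processed signals in the same files had been background-subtracted and dye-normalized, per the file headers. For 40000 probes the authors' deposited table gives a log2 ratio with its mean log2 brightness, each p-value before and after adjustment, and a score for the moderated t and for the log odds. The submitters' processing notes list limma; the sources used here do not give its settings.

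Median signals were corrected with normexp (offset 50) and normalized by within-array loess (span 0.3), giving weight 0 to controls and outlier spots. Outliers were then dropped and the spots of 1 probe averaged. A probe was kept if at least 0.5 of its spots were well above background on 2 or more arrays in 1 channel (31603 of 55681). The brightest probe stood for a gene. Of 29123 probes with an accession, 27656 were named through the GRCm38.p6 RefSeq gene table. Channel intensities printed on the log2 scale were also scaled between arrays (Aquantile). Mean log2 ratios were tested against 0 with limma 3.58.1 in R 4.3.3 (intercept only, two-sided), adjusted over 23555 genes. The fit was tested on simulated data. Genes named are the 10 members, up to 3 of each pathway list by smallest unadjusted p, and every called gene of a list. Single markers of the presomitic and somite list and of the primitive erythroid list were named after their values were seen. Cdx1, Cdx2, Sall4, Meis2, Pcdh8, Shh and the neighbouring genes Wdr93, Anpep and Per1 were chosen after their values were seen. The members and lists were chosen with earlier results of these data known. Promoters of all 10 genes (11 starts) were searched on both strands for the RBPJ core TGGGAA, the E-box CANNTG, the N-box CACNAG and the T-box element AGGTGT. E-boxes stood in 10 of 11 member promoters and in 66.2% of all, and N-boxes in 4 of 11 and in 36.7%.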

Additional observations from a re-analysis of the deposited data

How the results depend on the processing

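The count of segmentation genes past the threshold was 0 in every setting (limma), with 7 at an unadjusted p below 0.05 as reported and 4 to 7 in the alternatives. The number below 0 in all pairs, counted after seeing the data, was 5 to 7. Leaving out 1 pair gave medians from -0.46 to -0.13, the last without pair 3. Each difference between paralogues changed sign in at least 1 setting, that of the Ripply genes only without pair 1. Mesp2 minus Mesp1 was 0.0686 with processed signals. Dll3 minus Dll1 was -0.0070 with median centring and -0.0014 with the mean over probes. With 1 pair left out, Mesp2 minus Mesp1 ran from -0.167 to 0.0701, Dll3 minus Dll1 from -0.0295 to 0.100 and Ripply2 minus Ripply1 from -0.10 to 0.72. The Lfng mean was -0.0073 with a loess span of 0.02, -0.0428 with median centring, -0.0103 with processed signals, -0.0046 without background correction and -0.00995 with an offset of 0. With 1 pair left out the Lfng mean ran from -0.0775 to 0.0442, and that of Msgn1 from -0.0468 to 0.457. The cause of these changes was not tested. Over all genes, 326 passed as reported, 651 with median centring, 201 with the mean over probes, and 0 with a span of 0.02, processed signals, an offset of 0, without bright genes or without any 1 pair. The fit is paired by array, and no further replicate block could be fitted, since the samples form 1 group. The number of arrays limits precision, and the dim Mesp1, Mesp2 and Lfng probes lie closest to background.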

Other observations

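The protein-coding genes on either side of each of the 10 genes were read in the same fit, a comparison chosen after the values were seen. Of 18 such neighbours, all tested, 6 lay below 0 in all 3 pairs, against 23.8% of all genes, and 1 passed the threshold, against 1.38%. The latter was Wdr93. It is the protein-coding neighbour of Mesp1 on the side away from Mesp2. The ratios of Wdr93 were -0.90, -1.27 and -1.03 on the log2 scale, averaging -1.07 ± 0.10 (SE, n = 3, limma adjusted p = 0.0266). The call was lost when any 1 pair was left out, with a loess span of 0.02, processed signals or an offset of 0, and without bright genes, where no gene passed. For Cy3 the median signal was 675.5, 755 and 665, and for Cy5 it was 603.5, 394 and 505, well above background in both channels on every array. Anpep, the neighbour of Mesp2 on the other side, had -0.37, -0.87 and 0.08 (mean -0.39 ± 0.19, adjusted p = 0.356). Per1, a circadian clock gene beside Hes7, had -0.15, -0.53 and 0.12.

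Genes of the tail bud list with their lowest ratio in pair 3, named after their values were seen, included the caudal homeobox genes Cdx1 (0.40, -0.67 and -1.09) and Cdx2 (0.16, 0.21 and -0.63). Only Sall4, Meis2 and Pcdh8 of that list did not have their lowest ratio in pair 3. The list had medians of 0.17, 0.06 and -0.17. How many of all genes were lowest in pair 3 was not counted. Shh, a signal of the notochord and floor plate from the list of other embryo tissues, had 0.27, -0.20 and -1.44. Cdx1, Cdx2 and Shh did not pass the threshold (limma adjusted p = 0.45, 0.836 and 0.502).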
